A study of Mus musculus with 9 samples.

Results

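Cytosolic ribosomes consist of a small and a large subunit, in which ribosomal RNA is held by a fixed set of ribosomal proteins, each present about once per ribosome. The genes were taken by name from the deposited expression table: every symbol made of Rps or Rpl and a number, with at most 1 letter a, x or y and 1 more digit after it, the stalk genes Rplp0, Rplp1 and Rplp2, Rpsa, and the paralogs Rpl22l1, Rps27l and Rpl7l1, leaving out pseudogenes and the S6 kinases. All 80 genes that matched reached 0.5 FPKM in 3 or more of the 9 libraries, so the filter removed none of them. They were 80 of 14013 genes kept, 32 of the small subunit and 48 of the large subunit. The name rule leaves out Fau and Rack1, which also encode ribosomal proteins.

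RNA was sequenced from the medial prefrontal cortex (mPFC) of mice in 3 groups of 3 libraries each. The running group is listed as exercise, and per the series design running was studied in mice under chronic unpredictable stress (CUS), a model in which stressors alternate without a pattern. The CUS group is listed as stress, and the control group as no stress. All 9 libraries carry the terms 4week and week8, whose meaning the labels do not give, and strain, sex and age are not stated in the sources used here. Values are FPKM, in which the fragments of a gene are divided by the length of its transcript and by the size of the library. Comparisons of levels between genes therefore depend on the length taken for each. The read depth behind the values is unknown. The labels do not say that each library is a separate animal, so each p-value measures the spread between these libraries only.

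Most ribosomal protein mRNAs of mammals start with a C followed by an unbroken tract of C and T, the 5′ TOP motif (terminal oligopyrimidine), through which the mTORC1 kinase pathway and the RNA-binding protein Larp1 adjust their translation together. Neurons need new ribosomes for growth of processes and for protein synthesis at synapses, and ribosomal protein mRNAs have been found in dendrites and axons. The amount of mRNA measured here does not report on translation or on the number of ribosomes.

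Libraries were first compared as wholes. Excitatory neuron markers were present in all 9 libraries: their 5 genes summed to between 1688 and 1856 FPKM. The oligodendrocyte list of 5 genes summed to 1064 FPKM in control library 3, against 417 to 628 FPKM in the other 8. Control library 3 also had the highest choroid plexus sum, 216 FPKM against 6.84 to 40.9 FPKM elsewhere. The blood list of 5 genes summed to 972, 1238 and 1086 FPKM in running, 751, 1040 and 683 FPKM in CUS, and 650, 493 and 875 FPKM in control libraries. CUS library 3 stood apart from the rest on the first principal component, at 28.4 against -10.8 to 8.09, and this component held 30.3% of the variance. The part of these differences in the results on ribosomal proteins was not tested, and in bulk tissue fewer cells of a type and less RNA per cell cannot be told apart.

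Ribosomal protein mRNAs were lowest in the running libraries and highest in CUS library 3. The 80 genes together held 4.97%, 5.02% and 4.78% of all FPKM in running libraries 1 to 3, 5.50%, 5.51% and 6.80% in CUS libraries 1 to 3, and 5.18%, 5.10% and 5.68% in control libraries 1 to 3. CUS library 3 gave the highest value of all 9 for 80 of 80 genes, and running library 3 gave the lowest for 63. On the log2(FPKM + 0.5) scale, the median gene lay -0.13, -0.15 and -0.22 from its own mean over the 9 libraries in running, 0.06, 0.04 and 0.47 in CUS, and -0.07, -0.10 and 0.09 in control libraries. The running libraries thus lay below both other groups, but control libraries 1 and 2 came close to them, and CUS libraries 1 and 2 lay within the range of the controls.

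**Figure D1:**
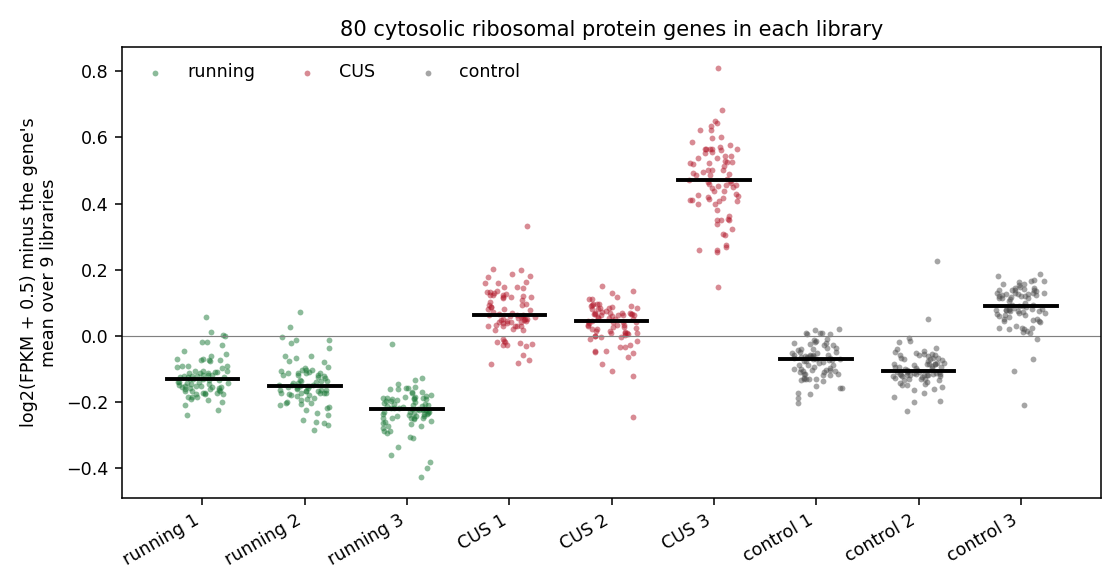
Each point is 1 of 80 cytosolic ribosomal protein genes in 1 library, plotted as its log2(FPKM + 0.5) minus that gene's mean over the 9 libraries. Black lines are medians over genes: CUS library 3 stands at 0.47, and the running libraries at -0.13, -0.15 and -0.22.

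The genes of this group spanned a wide range of levels. Rplp1, an acidic protein of the stalk that recruits translation factors, had 715, 701 and 693 FPKM in running libraries 1 to 3, against 863, 783 and 1170.5 FPKM in CUS libraries 1 to 3 and 723, 736 and 833 FPKM in control libraries 1 to 3. Rpl41, which encodes a very short basic peptide of the large subunit, had 675, 655 and 659.9 FPKM in running libraries 1 to 3, against 753, 798 and 1046 FPKM in CUS libraries 1 to 3 and 767, 719 and 857 FPKM in control libraries 1 to 3. These 2 genes and Rps15, Rps27 and Rps29 had the highest means over the 9 libraries, and 72 of 80 genes averaged over 100 FPKM. Rps6, the small subunit protein that S6 kinase phosphorylates downstream of mTORC1, was listed lowest, at 6.60, 7.20 and 5.43 FPKM in running libraries 1 to 3, against 8.04, 7.41 and 9.68 FPKM in CUS libraries 1 to 3 and 6.77, 8.53 and 6.18 FPKM in control libraries 1 to 3. Only Rps6 averaged below 10 FPKM. Near-identical copies of a ribosomal protein gene elsewhere in the genome can share its reads, and how they were divided is not given in the sources used here, so the levels of single members are uncertain and the low level of Rps6 most of all. The lowest members after it were Rps27l, Rpl7l1, Rps15a and Rps20. FPKM divides by transcript length, and the annotated lengths of Rps15a and Rps20 are 5179 and 3706 nt. The median over the members is 785.5 nt, so the low levels of these 2 genes depend on the length taken for them.

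Of the 3 comparisons, running against CUS had the largest differences. Every one of the 80 genes was lower in running, with a median log2 difference of -0.36, which is -22.2%, against a median of -0.03 over all 14013 genes. The differences ranged from -0.56 for Rpl22l1 to -0.03 for Rpl7l1. No member passed an adjusted p of 0.05 with limma and Benjamini-Hochberg adjustment over all genes, a threshold that 0.00714% of all genes passed. At an unadjusted p under 0.05, 77 of 80 members were lower, against 15.7% of all genes. In 73 members all running values lay below all CUS values, against 15.9% of all genes. Genes of 1 complex vary together between libraries, so these 80 are not 80 independent observations.

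**Figure D2:**
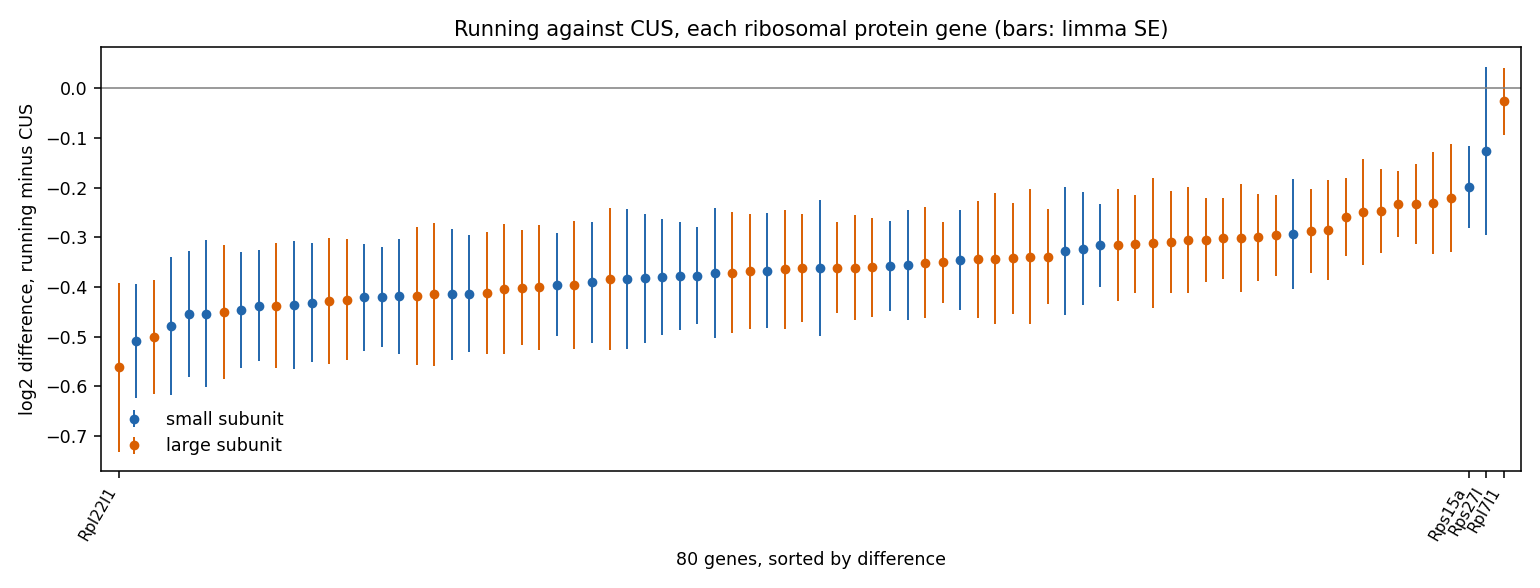
Log2 difference on the log2(FPKM + 0.5) scale, running minus CUS, of each of the 80 genes, sorted, with bars of 1 limma standard error (n = 3 libraries each), blue for the small and orange for the large subunit. All points lie below 0, from -0.56 for Rpl22l1 to -0.03 for Rpl7l1, with Rps15a, Rps27l and Rpl7l1 at the upper end.

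Rps19, Rpl39, Rpl10 and Rpsa were among the members with the smallest p in this comparison. Rps19 (chromosome 7, 24884592 to 24889811), needed to mature the RNA of the small subunit, had 176, 178 and 159 FPKM in running libraries 1 to 3, against 231, 207 and 299 FPKM in CUS libraries 1 to 3 and 187, 191 and 211 FPKM in control libraries 1 to 3. All 3 running values lay below all others, and the CUS libraries were spread widely. Between running and CUS it differed by -0.51 on the log2 scale (limma SE 0.116 and adjusted p = 0.0776). Rpl39 (chromosome X, 37082518 to 37085222), which lines the exit tunnel of the large subunit, had 107, 97.0 and 98.3 FPKM in running libraries 1 to 3, against 147, 117 and 169 FPKM in CUS libraries 1 to 3 and 103, 113 and 118 FPKM in control libraries 1 to 3. Its lowest CUS value was below the highest control value, while running lay below CUS with no overlap. Rpl39 differed by -0.50 (limma SE 0.114 and adjusted p = 0.0776). Rpl10 (chromosome X, 74270816 to 74273135), one of the last proteins to join the large subunit, had 293, 294 and 286 FPKM in running libraries 1 to 3, against 339, 362 and 417 FPKM in CUS libraries 1 to 3 and 307, 311 and 344 FPKM in control libraries 1 to 3. The running libraries were close to each other and below every other library for this gene, and differed from CUS by -0.35 on the log2 scale (limma SE 0.0811 and adjusted p = 0.0776).

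Rpsa, known also as the laminin receptor precursor and placed near the mRNA exit of the small subunit, had 215, 212 and 204 FPKM in running libraries 1 to 3, against 247, 252 and 316 FPKM in CUS libraries 1 to 3 and 228, 232 and 251 FPKM in control libraries 1 to 3. Running was again below both other groups, and the log2 difference from CUS was -0.36 (limma adjusted p = 0.0845). Without CUS library 3 the differences from CUS were -0.36 for Rps19, -0.38 for Rpl39, -0.27 for Rpl10 and -0.24 for Rpsa.

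**Figure D3:**
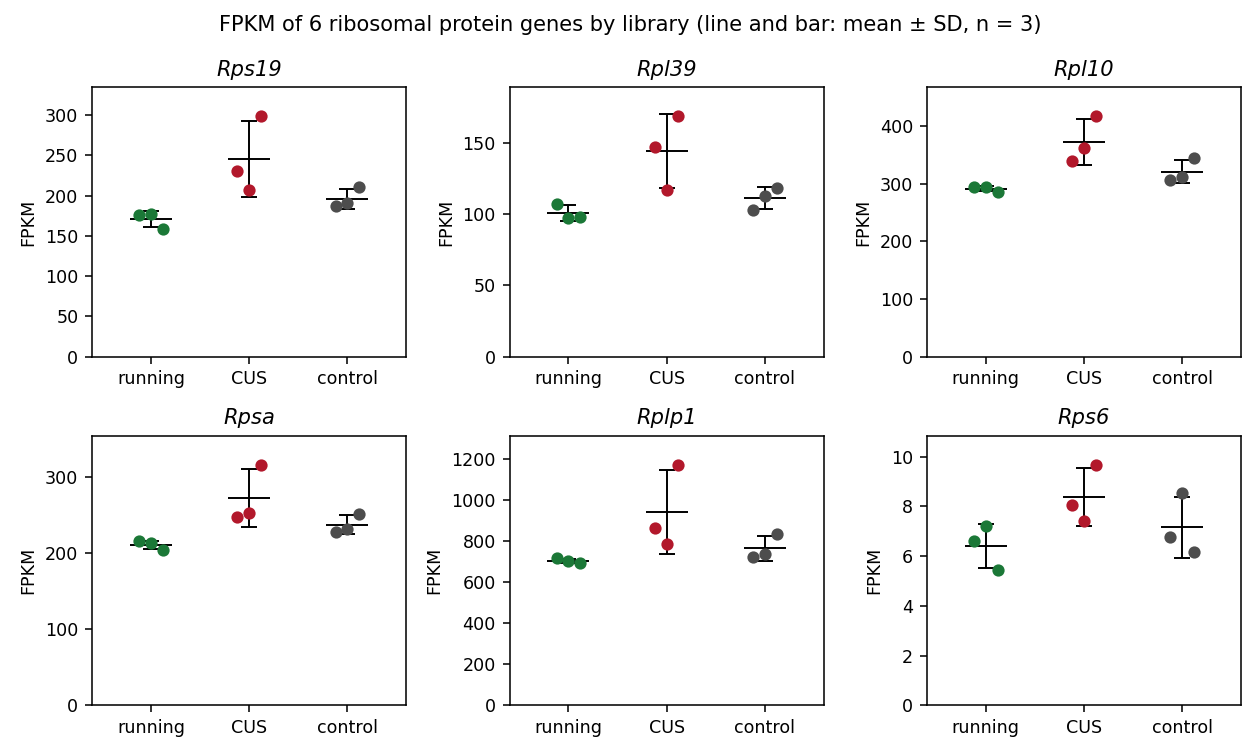
FPKM of 6 genes (Rps19, Rpl39, Rpl10, Rpsa, Rplp1 and Rps6) by library (points), with the mean and SD of each group (line and bar, n = 3). In all 6 the running libraries lie below all CUS libraries; Rps6, the lowest of the members, is on a scale of its own, between 5.43 and 9.68 FPKM.

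The start regions of these genes are shown because their transcripts begin there and because the members were lower together. RefSeq promoter windows of the GRCm38.p6 build, from 250 bases before to 50 bases after the start, were found for 60 of the 80 genes, in 71 windows. The printed stretches run from 50 bases before the start to 25 bases from the start on, 5′ to 3′ on the strand of the gene, from the first listed start. Capitals mark the longest unbroken run of C and T within the stretch that overlaps the 30 bases before the start or the 25 from it on. Rps19, Rpl39 and Rpl10 are shown as genes with the smallest p, Rps27 as a highly expressed member, Rplp2 as a stalk gene, and Rps6 as the S6 kinase target.
Rps19, chr7:24884542-24884616, plus strand: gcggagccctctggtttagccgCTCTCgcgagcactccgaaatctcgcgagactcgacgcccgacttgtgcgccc
Rpl39, chrX:37085198-37085272, minus strand: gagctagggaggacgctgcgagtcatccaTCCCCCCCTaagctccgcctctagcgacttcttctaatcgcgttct
Rpl10, chrX:74270766-74270840, plus strand: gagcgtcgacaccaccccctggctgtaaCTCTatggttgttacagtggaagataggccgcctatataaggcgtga
Rps27, chr3:90213624-90213698, minus strand: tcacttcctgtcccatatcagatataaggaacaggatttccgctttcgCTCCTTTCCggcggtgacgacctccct
Rplp2, chr7:141447601-141447675, plus strand: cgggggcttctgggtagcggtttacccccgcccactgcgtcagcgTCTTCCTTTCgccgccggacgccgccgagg
Rps6, chr4:86857343-86857417, minus strand: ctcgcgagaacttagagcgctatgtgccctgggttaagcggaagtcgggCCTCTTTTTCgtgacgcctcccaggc

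Counting the start as position 1, the run began at -28 in Rps19, -21 in Rpl39, -22 in Rpl10, -2 in Rps27, -5 in Rplp2 and -1 in Rps6. It spanned the annotated start in Rps27, Rplp2 and Rps6, and ended before it in Rps19, Rpl39 and Rpl10, whose annotated starts may differ from those used in cortex. In the whole windows, a run of at least 8 C or T overlapping the 30 bases on either side of the start was counted. It was found in 66.2% of the 71 member windows (43 of 60 genes), against 27.3% of all 32851 windows. CTTTCC, on the transcribed strand and within 30 bases of the start, was in 16.9% of member windows and 2.89% of all windows; it can lie within such a run. On both strands and over the whole window, CCGGAAG, a sequence bound by ETS factors, was in 36.6% of member windows against 8.86% of all. AAGATGG, part of the site of Yy1, was in 16.9% against 6.34%, and TATAAA was in 9.86% against 13.6%. These matches describe letters in a window and were not set against the expression values.

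Genes of both subunits were lower in running. The median log2 difference was -0.38 over the 32 small subunit genes and -0.34 over the 48 large subunit genes, and a test between subunits was not made. Among the stalk genes, which form the arm that calls in elongation factors, Rplp0 had 133, 133 and 127 FPKM in running libraries, against 150.0, 154 and 181 FPKM in CUS libraries, a log2 difference of -0.30. Rpl12, at the base of the stalk, had one of -0.31, Rplp1 one of -0.40 and Rplp2 one of -0.31. In Rplp2 the groups overlapped, since running libraries 1 and 2, at 224 and 221 FPKM, were above CUS library 2 at 219 FPKM. Rpl5 and Rpl11, which carry the 5S RNA into the large subunit and bind Mdm2 when ribosome assembly fails, had log2 differences of -0.29 and -0.38.

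Of the 9 genes at the exit tunnel and its rim, where the new protein leaves the ribosome, 8 were lower at an unadjusted p under 0.05, as were 77 of all 80 members and 15.7% of all genes. Their log2 differences, running minus CUS, ran from -0.50 for Rpl39 through -0.40 for Rpl35, -0.37 for Rpl17, -0.36 for Rpl26, -0.34 for Rpl31, -0.29 for Rpl23a, -0.23 for Rpl22 and -0.23 for Rpl4 to -0.22 for Rpl19. The exception was Rpl19, with 374, 388 and 348 FPKM in running libraries 1 to 3, against 387, 412 and 503 FPKM in CUS libraries 1 to 3. Its running library 2 lay above CUS library 1 (limma adjusted p = 0.244).

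On the small subunit, Rps2 and Rps3, which line the channel where mRNA enters, had log2 differences of -0.35 and -0.32 between running and CUS. For Rps26 and Rps28, at the mRNA exit, they were -0.41 and -0.38. Rps15 and Rps23, which reach into the site where codons are read, had -0.38 and -0.33. Rps27a, made as a fusion with ubiquitin, had 182, 181 and 166 FPKM in running libraries 1 to 3, against 229.9, 196 and 302 FPKM in CUS libraries 1 to 3, running minus CUS being -0.44 on the log2 scale (limma adjusted p = 0.0986). In all of these 7 genes running lay below CUS without overlap, as in 73 of all 80 members and 15.9% of all genes. Rps6 differed by -0.36 on that scale (limma adjusted p = 0.151), with the uncertainty of its level stated above.

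Mutations in ribosomal protein genes are known from Diamond-Blackfan anaemia, a failure of red cell production. A list of 9 members whose human orthologues are mutated in this disease was used, which leaves out others known from it. All 9, among them Rps7, Rps19, Rps26, Rpl5, Rpl11 and Rpl35a, were lower in running without overlap with CUS, as were 73 of all 80 members and 15.9% of all genes. Their median log2 difference was -0.41, against -0.36 over all members. Rps7 had 205, 204 and 205 FPKM in running libraries 1 to 3, against 255, 239 and 362 FPKM in CUS libraries 1 to 3. Its running libraries differed by less than 1 FPKM, while its CUS libraries were spread over more than 100 FPKM. Rpl35a had 215, 210.3 and 205 FPKM in running libraries 1 to 3, against 262, 241 and 377 FPKM in CUS libraries 1 to 3, with CUS library 3 far above the other 2. The log2 differences were -0.45 for Rps7 and -0.45 for Rpl35a (limma adjusted p = 0.0928 and 0.101).

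Rps27l, Rpl7l1 and Rpl22l1 are paralogs of Rps27, Rpl7 and Rpl22, and sit at both ends of the range of differences. In mice, Rpl22 is known to bind the mRNA of Rpl22l1 and lower it. The start regions of the paralogs and of Rpl22 are shown to be read beside that of Rps27, with capitals as before.
Rps27l, chr9:66946036-66946110, plus strand: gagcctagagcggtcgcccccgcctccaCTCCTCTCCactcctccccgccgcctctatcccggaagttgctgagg
Rpl7l1, chr17:46782632-46782706, minus strand: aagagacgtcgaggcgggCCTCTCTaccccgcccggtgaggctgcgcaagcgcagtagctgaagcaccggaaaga
Rpl22l1, chr3:28805458-28805532, plus strand: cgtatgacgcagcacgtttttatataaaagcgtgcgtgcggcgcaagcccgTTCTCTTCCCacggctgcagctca
Rpl22, chr4:152325676-152325750, plus strand: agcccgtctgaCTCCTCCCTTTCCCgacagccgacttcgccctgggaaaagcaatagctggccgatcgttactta

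The Rps27l stretch holds 2 runs of the same length, of which the first is in capitals. The run began at -22 in Rps27l, -32 in Rpl7l1, 2 in Rpl22l1 and -39 in Rpl22. Rps27l had 13.3, 13.0 and 10.8 FPKM in running libraries 1 to 3, against 12.03, 10.7 and 19.1 FPKM in CUS libraries 1 to 3 and 12.3, 12.3 and 12.9 FPKM in control libraries 1 to 3. Rpl7l1 had 15.6, 16.4 and 15.3 FPKM in running libraries 1 to 3, against 15.4, 15.6 and 17.3 FPKM in CUS libraries 1 to 3 and 15.0, 14.1 and 15.7 FPKM in control libraries 1 to 3. In both genes the 3 groups overlapped, and the log2 difference of running from CUS was -0.13 (SE 0.169) for Rps27l and -0.03 (SE 0.0675) for Rpl7l1, neither with an unadjusted limma p under 0.05. Rpl22l1 had 66.5, 55.0 and 49.9 FPKM in running libraries 1 to 3, against 75.8, 67.2 and 116 FPKM in CUS libraries 1 to 3 and 58.5, 59.4 and 62.9 FPKM in control libraries 1 to 3. Its CUS library 3 was far above the rest, and the log2 difference of running from CUS was -0.56 (SE 0.17), or -0.33 without that library. Rpl22 had 36.8, 36.5 and 34.0 FPKM in running libraries 1 to 3, against 41.3, 39.8 and 45.4 FPKM in CUS libraries 1 to 3 and 35.3, 35.7 and 38.8 FPKM in control libraries 1 to 3, with all CUS values above all others.

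Ratios of (FPKM + 0.5) were then taken within each library, where the scaling of the library has little part. The log2 ratio of Rps27l to Rps27 was -5.02, -5.09 and -5.20 in running libraries, -5.50, -5.52 and -5.35 in CUS libraries, and -5.16, -5.25 and -5.31 in control libraries. Running libraries lay above CUS libraries by 0.35 (exact permutation p = 0.1, adjusted p = 0.18 over 9 tests), and CUS differed from control by -0.22 (exact permutation p = 0.1, adjusted p = 0.18). With 3 libraries against 3, 0.1 is the smallest p that this two-sided test can give, so no ratio could pass 0.05. The log2 ratio of Rpl7l1 to Rpl7 was -3.65, -3.60 and -3.56 in running, -3.90, -3.70 and -4.07 in CUS, and -3.67, -3.79 and -3.79 in control libraries. Running was above CUS by 0.29 and above control by 0.14, in both cases without overlap (exact permutation p = 0.1, adjusted p = 0.18, for each). After removal of each library's length and GC trend, which was added once the data had been seen, the differences for Rpl7l1 to Rpl7 were 0.14 from CUS and 0.09 from control, and running was above CUS by 0.35 for Rps27l to Rps27. The log2 ratio of Rpl22l1 to Rpl22 was 0.84, 0.59 and 0.55 in running, 0.87, 0.75 and 1.34 in CUS, and 0.72, 0.73 and 0.69 in control libraries. Here the running mean was lower than the CUS mean, with a difference of -0.33, but the values overlapped (exact permutation p = 0.2, adjusted p = 0.257). It was -0.15 without CUS library 3 and -0.12 with the trend removed. CUS was above control by 0.27 (exact permutation p = 0.1, adjusted p = 0.18), by 0.10 without CUS library 3 and by 0.14 with the trend removed.

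**Figure D4:**
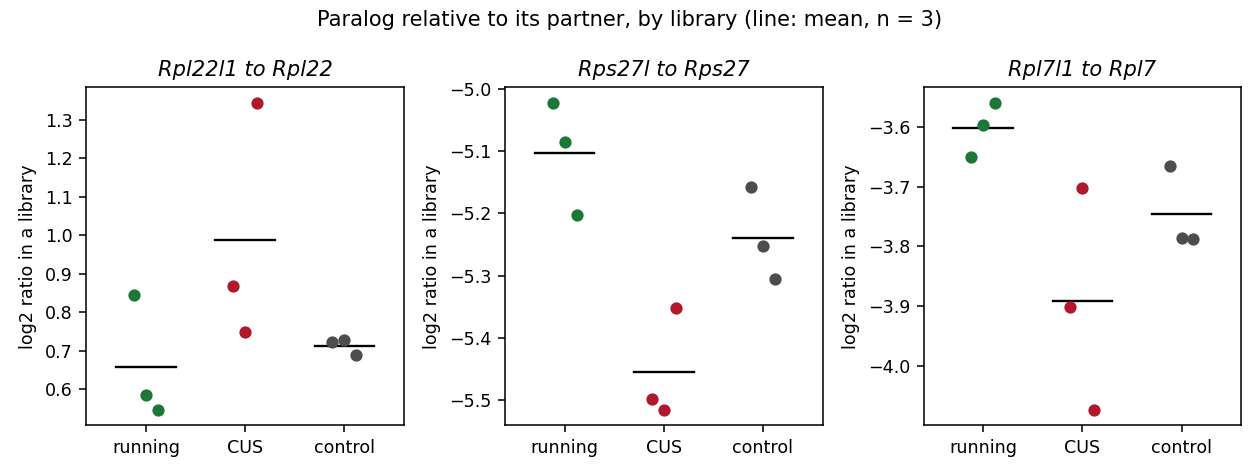
Log2 ratio of (FPKM + 0.5) of a paralog to that of its partner in each library, with the mean of each group as a line (n = 3). Running lies above CUS without overlap for Rps27l to Rps27 and Rpl7l1 to Rpl7, while for Rpl22l1 to Rpl22 CUS library 3, at 1.34, is highest.

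CUS against control gave smaller differences of the opposite sign. All 80 genes were higher in CUS, with a median log2 difference of 0.22 (16.3%) and a range from 0.09 for Rplp2 to 0.48 for Rpl22l1, against a median of 0.02 over all genes. None passed the adjusted threshold, which 0.00714% of all genes passed. At an unadjusted limma p under 0.05, 28 members were higher, against 8.9% of all genes. In 9 members all CUS values lay above all control values, a share near the 12.1% of all genes. These 9 were Rps4x, Rps7, Rps15a, Rps18, Rpl6, Rpl15, Rpl22, Rpl22l1 and Rpl34, named after their values were seen. The CUS libraries enter this comparison and that with running, so the opposite signs are not independent of each other.

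Rpl15, of the large subunit, had 122, 122 and 155 FPKM in CUS libraries 1 to 3, against 112, 106 and 115 FPKM in control libraries 1 to 3. Rps15a, of the small subunit, had 26.3, 24.3 and 30.1 FPKM in CUS libraries 1 to 3, against 21.6, 24.1 and 22.4 FPKM in control libraries 1 to 3. In both, every CUS library was above every control library. The log2 differences were 0.25 for Rpl15 and 0.23 for Rps15a (limma adjusted p = 0.278 and 0.276), and 0.36 for Rpl39 and 0.20 for Rpl22 (limma adjusted p = 0.267 for each). Rpl14, at the other end, had 184, 189.8 and 237 FPKM in CUS libraries 1 to 3, against 182, 175 and 210.1 FPKM in control libraries 1 to 3, with control library 3 above CUS libraries 1 and 2 and a log2 difference of 0.10. Without CUS library 3 the median difference over the members was 0.09, with 71 of 80 higher, and 5 members had an unadjusted p under 0.05, against 5.79% of all genes. The count of 28 was 47 without CUS library 1, 51 without CUS library 2 and 47 without control library 3, against 15.8%, 22.5% and 11.9% of all genes in either direction. It was 4 and 5 without control libraries 1 and 2, against 8.89% and 10.7%. Without any 1 of running libraries 1 to 3 it was 17, against 13.5%, 13.9% and 12.8% of all genes in either direction.

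Running against control gave a median log2 difference over the members of -0.14 (-9.48%), against -0.02 over all genes, and 78 members were lower, the exceptions being Rps15a at 0.04 and Rpl7l1 at 0.08. No member passed the adjusted threshold, which 0.0214% of all genes passed, and 0 had an unadjusted limma p under 0.05, against 6.47% of all genes. This count was 31 in a fit of these 2 groups alone, against 16.8% of all genes in either direction, 38 without CUS library 3, which enters only the estimate of the spread here, against 16.4%, and 19 with library quality weights, against 19.4%. The median was -0.08 without control library 3 and -0.03 with the trend of length and GC content removed. In 39 members the running values lay below all control values without overlap, against 11.9% of all genes. Rpl41 had the smallest p, at -0.23 on the log2 scale (limma SE 0.116 and adjusted p = 0.473), and its values stand above. Rpl28, a large subunit protein of animals that yeast lacks, had 289.7, 286 and 288 FPKM in running libraries 1 to 3, against 317, 293 and 364 FPKM in control libraries 1 to 3. Rpl8, a core protein that binds near the peptide-forming centre, had 272, 253 and 248 FPKM in running libraries 1 to 3, against 279, 276 and 308 FPKM in control libraries 1 to 3. Rps13, of the small subunit, had 148, 149 and 136 FPKM in running libraries 1 to 3, against 165, 154 and 172 FPKM in control libraries 1 to 3. All 3 genes were lower in every running library than in any control library, with log2 differences of -0.17, -0.16 and -0.18. Rpl36 had the lowest difference with Rpl41, -0.23, and its groups overlapped.

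Other short transcripts differed between the groups in the same directions. The members have a median transcript length of 785.5 nt, against 2909.75 nt over all kept genes with a length, and 56 of 80 are under 1000 nt. Among genes that are not members, the median log2 difference of running from CUS was -0.27 over 844 genes under 1000 nt, -0.16 over 2989 genes of 1000 to under 2000 nt, -0.04 over 5749 genes of 2000 to under 4000 nt and 0.08 over 4104 genes of 4000 nt or more. For CUS against control the same classes had 0.16, 0.09, 0.03 and -0.05, and for running against control -0.10, -0.07, -0.01 and 0.03. The 111 other genes under 1000 nt with a mean of at least 100 FPKM had -0.30, 0.20 and -0.11 in the 3 comparisons. Members themselves had -0.38 for running against CUS over the 56 under 1000 nt, -0.32 over 19 of 1000 to under 2000 nt and -0.23 over 5 of 2000 nt or more. Across the 80 members, which share their libraries, Spearman's rho between this difference and length was 0.35.

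With a smooth trend of length and GC content removed from each library, the members' median was -0.14 for running against CUS (76 of 80 lower), 0.12 for CUS against control (75 higher) and -0.03 for running against control (63 lower). The libraries then lay at -0.07, -0.04 and -0.07 in running, -0.01, 0.07 and 0.19 in CUS and -0.06, -0.05 and 0.04 in control. An unadjusted p under 0.05 was then reached by 36 members that were lower in running than in CUS, against 8.25% of all genes, and by 26 that were higher in CUS than in control, against 9.16%. Single genes for running against CUS had -0.27 for Rps19, -0.27 for Rpsa, -0.23 for Rpl39 and -0.11 for Rpl10. What underlies the trend with length was not tested.

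**Figure D5:**
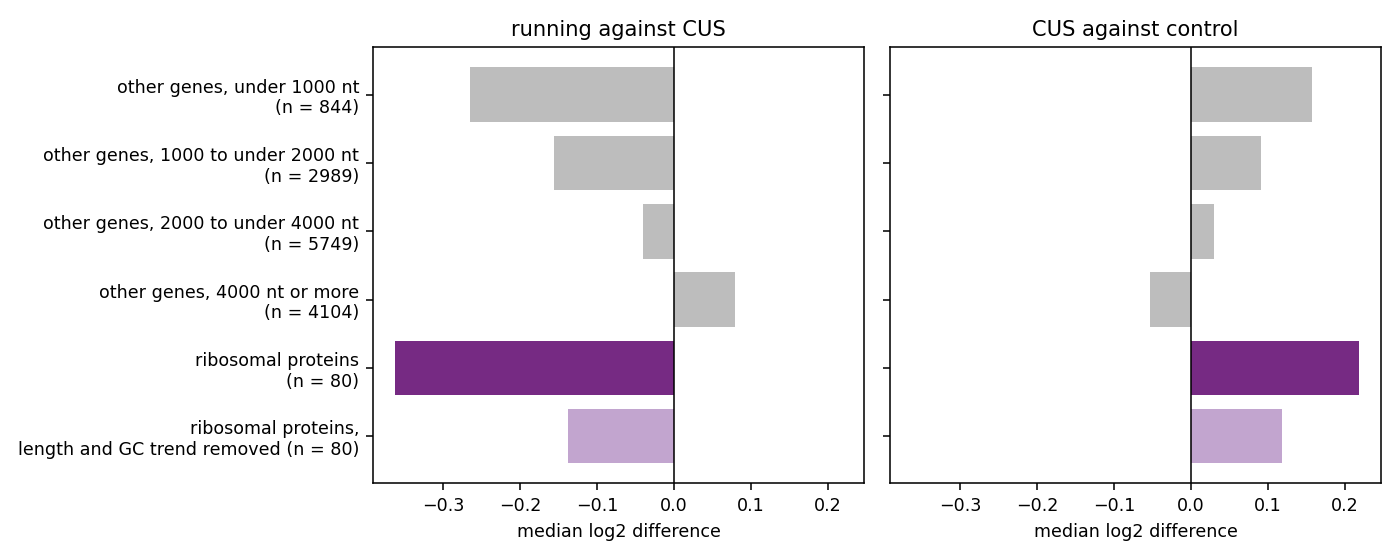
Median log2 difference, running minus CUS (left) and CUS minus control (right), over genes that are not members by transcript length (grey), over the 80 ribosomal protein genes (dark) and over the same 80 with the trend of length and GC content removed (light). For running against CUS the shortest class of other genes stands at -0.27, the members at -0.36 and, with the trend removed, at -0.14.

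The difference between running and CUS depended on CUS library 3 in size. Without it the members' median was -0.22, with 78 of 80 lower, and 66 members were lower at an unadjusted p under 0.05, against 12.3% of all genes. Quantile normalization gave a median of -0.21, and scaling every library to the same FPKM total gave -0.26. Without CUS library 2, 49 members passed an adjusted p of 0.05 as lower, against 7.56% of all genes. With limma's library quality weights, 52 members passed as lower, against 10.6% of all genes, at a median of -0.27. Those weights were 1.02, 0.761 and 1.75 for running libraries 1 to 3, 2.61, 0.575 and 0.244 for CUS libraries 1 to 3, and 1.47, 1.39 and 0.990 for control libraries 1 to 3. Leaving out any 1 library other than CUS library 2 gave 0 members that passed.

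Other genes of the translation machinery were set beside the members. The lists were not matched to the members in transcript length, and their medians are without removal of the length and GC trend. The part of length in the differences between lists was not tested. The 21 translation genes with a known 5′ TOP motif outside the name rule had a median log2 difference of -0.24 for running against CUS, with 19 lower. At an unadjusted limma p under 0.05, 15 of them were lower, against 15.7% of all genes, and 0 passed the adjusted threshold. Eef1g, a subunit of elongation factor 1, had 148, 159.8 and 148 FPKM in running libraries 1 to 3, against 179, 177 and 192 FPKM in CUS libraries 1 to 3, running minus CUS being -0.27 on the log2 scale (limma adjusted p = 0.0776). Rack1, a signalling scaffold on the small subunit, had a log2 difference of -0.29. Running lay below CUS without overlap for Eef1g. For CUS against control the 21 genes had a median of 0.13 with 19 higher, among them Eif3e, an initiation factor subunit, at 0.22. For running against control it was -0.09, with 20 lower, and Hnrnpa1, an RNA-binding protein, was at -0.10. At an unadjusted limma p under 0.05, 0 were lower there, against 6.47% of all genes. Of 4 paralogs outside the name rule, 1 passed the filter on low values, Rpl36al, with -0.36 for running against CUS.

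The 31 other cytosolic translation factors had medians closer to 0: -0.07 for running against CUS (25 lower, 7 of them at an unadjusted p under 0.05; 6 higher, 2 of them), 0.06 for CUS against control and 0.01 for running against control. Eif6, which keeps the subunits apart until the large one is mature, had 23.3, 22.6 and 21.6 FPKM in running libraries 1 to 3, against 26.5, 25.6 and 28.1 FPKM in CUS libraries 1 to 3, lower in running without overlap (log2 difference -0.24, limma adjusted p = 0.0877). The 46 genes of RNA polymerase I and ribosome assembly had -0.06 for running against CUS (29 lower, 7 of them at an unadjusted p under 0.05; 17 higher, 2 of them), 0.06 and 0.00 in the other comparisons. Between running and CUS, 15.7% of all genes were lower and 1085 of 14013 higher at an unadjusted limma p under 0.05. The 7 of 46 lower genes are a share near that of all genes. Fbl, which methylates ribosomal RNA, had 28.2, 26.6 and 26.8 FPKM in running libraries 1 to 3, against 35.1, 30.6 and 38.4 FPKM in CUS libraries 1 to 3, a log2 difference of -0.34 (adjusted p = 0.0776, limma). Nhp2, of the particles that modify uridines in ribosomal RNA, had -0.42, and Polr1d, a subunit of RNA polymerases I and III, had -0.27. Polr1a, the largest subunit of polymerase I, was among the higher genes, at 0.25. The transcripts of Nhp2, Polr1d and Fbl are 1042, 1166.5 and 1197 nt long, and that of Polr1a is 9216 nt. Among genes that are not members, the median for running against CUS was -0.16 at 1000 to under 2000 nt. It was 0.08 at 4000 nt or more. Of these 46 genes, 34 were higher in CUS than in control, with Fbl at 0.32 and Nob1, a nuclease of small subunit maturation, at 0.28.

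In the mTORC1 pathway, which adjusts translation of the members' mRNAs, 20 genes were measured. For running against CUS 4 were lower and 4 higher at an unadjusted limma p under 0.05. Of all genes, 15.7% were lower and 1085 of 14013 higher at that p. The median log2 difference of the 20 genes was 0.05, and 0 passed the adjusted threshold. Eif4ebp1, which holds back cap-dependent translation when mTORC1 is off, had 4.95, 4.93 and 5.82 FPKM in running libraries 1 to 3, against 10.6, 7.90 and 9.71 FPKM in CUS libraries 1 to 3 and 8.20, 8.57 and 8.01 FPKM in control libraries 1 to 3. All running values lay below all others, while CUS and control overlapped. The log2 difference was -0.78 from CUS (limma SE 0.104 and adjusted p = 0.0630) and -0.61 from control (limma adjusted p = 0.0750). Ddit4, an inhibitor of mTORC1 that glucocorticoids induce, had 18.7, 20.0 and 16.6 FPKM in running libraries 1 to 3, against 12.6, 14.2 and 11.5 FPKM in CUS libraries 1 to 3. It was higher in running than in CUS without overlap (log2 difference 0.51, limma adjusted p = 0.0898). Control libraries 1 to 3, at 14.45, 11.73 and 18.19 FPKM, overlapped both groups (running minus control 0.33, limma adjusted p = 0.405). Akt1s1, an inhibitory part of the complex, had -0.22. Deptor, another inhibitory part, had 0.29 for running against control (limma adjusted p = 0.226). Eif4ebp2, the relative of Eif4ebp1 prominent in brain, had 0.22 in that comparison (limma adjusted p = 0.382). For CUS against control the median of the 20 genes was 0.04, with Rps6kb1, an S6 kinase, at 0.13. These are mRNA levels and do not measure the activity of the pathway.

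Mitochondrial ribosomal proteins, nuclear-encoded proteins of the separate ribosome inside mitochondria, were set beside the members as the group nearest in kind. In running, all 78 were below CUS by a median log2 difference of -0.25. At an unadjusted limma p under 0.05, 51 were lower, against 15.7% of all genes, and 0 passed the adjusted threshold. Mrpl46, of the large subunit, had 15.9, 15.1 and 15.0 FPKM in running libraries 1 to 3, against 19.6, 19.9 and 23.7 FPKM in CUS libraries 1 to 3, running minus CUS being -0.44 on the log2 scale (limma SE 0.0754 and adjusted p = 0.0776). All 78 were higher in CUS than in control, with a median of 0.17, and 64 were lower in running than in control, with a median of -0.06. The highest library was CUS library 3 for these genes too, at a median of 0.30 above their own means, against 0.08 and 0.03 in CUS libraries 1 and 2. A test of the members against these genes was not made.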

How the data were processed

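RNA from the mPFC of mice was measured in 9 libraries, 3 for each of running, CUS and control, after selection of polyadenylated RNA with no step that marks the strand, per the labels' protocols. RSEM 1.2.12, Bowtie2 2.2.5, DESeq2 1.4.5 and the build mm10 are named in the submitters' processing notes, with no role for each. The table that the authors deposited holds FPKM and no read counts, so depth and counting error are unknown.

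The values were analysed as log2(FPKM + 0.5). Differences refer to this scale, which understates those of low genes. Of 65389 rows, 14013 reached 0.5 FPKM in 3 or more libraries and were kept. All 9 libraries entered 1 fit with limma 3.58.1 in R 4.3.3, with an intensity trend (6 residual and 4.71 prior degrees of freedom) and Benjamini-Hochberg adjustment over all kept genes. The threshold for a call was an adjusted p under 0.05. The fit was tested on simulated data in which genes varied independently, so genes that vary together, as the members do, were not covered. Paralog ratios were compared with an exact permutation test in scipy 1.17.1, two-sided, adjusted over 9 tests. Transcript length and GC content came from GENCODE M21 for 98.2% of kept genes and 80 of 80 members, and a loess trend (span 0.3) was removed in an alternative. Gene coordinates are those of GRCm38.p6, and promoter sequences are RefSeq's. No column of values was left without a sample.

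The members, gene lists and tests were chosen with earlier results of these data known. Described with values per library are the 5 members with the highest and the 5 with the lowest mean, the 5 with the smallest p in each comparison, the 3 farthest from the members' median on each side, those in lists of known roles, and up to 3 genes of each pathway list by p. Members outside this rule are given by counts. Some genes that this rule names are not reported here.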

Additional observations from a re-analysis of the deposited data

How the results depend on the processing

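The count of called members for running against CUS was 0 in every setting tried except library quality weights, with 52, and leaving out 1 library, which gave 0 to 49. Of all genes, 10.6% were called lower with those weights. Without CUS library 2, which gave the 49, 7.56% of all genes were. The members' median difference was -0.14 with the length and GC trend removed and -0.14 with that trend fitted without the members, an alternative chosen after seeing the data. Leaving out 1 library gave -0.43 to -0.22. The count of members at an unadjusted limma p under 0.05 was 36 and 40 under these trends. Of all genes, 15.4% and 15.5% reached that p in either direction. Leaving out 1 library gave a count of 58 to 77 members, against 14.9% to 30.6% of all genes in either direction.

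For CUS against control that count was 28. It was 16 under no filter on low values, 13 under quantile normalization, 10 in a fit of the groups compared and 17 without an intensity trend. Of all genes tested there, 12.5%, 13.5%, 11.7% and 13.98% reached that p in either direction. Leaving out 1 library gave 4 to 51, against 8.89% to 22.5% of all genes in either direction, and the median was then 0.09 to 0.29. For running against control the count was 0. It was 1 after rescaling to TPM, 1 under quantile normalization, 19 under quality weights and 31 in a fit of the groups compared. The shares of all genes, in either direction, were 11.5%, 12.03%, 19.4% and 16.8%. Leaving out 1 library gave 0 to 38 there, against 7.54% to 16.4% of all genes in either direction, and the median was -0.18 to -0.08. No member was called in either of these comparisons under any setting tried.

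The sign turned in 1 or more settings for 4 members in running against CUS (Rpl38 with the trend removed among them, at 0.05), 10 in CUS against control and 16 in running against control. With the trend removed it turned for 4, 5 and 15, and without CUS library 3 for 2 and 9 in the first 2 comparisons. Of members named by the rule, these values turned. For running against CUS, Rpl19 was at 0.016 with the trend removed and 0.0091 with it fitted without the members, and Rps27l at 0.16 and 0.15, with -0.29 to 0.12 leaving out 1 library. Rpl7l1 was at 0.074 as TPM, 0.0096 under quantile normalization, 0.0068 under quality weights, 0.013 and 0.012 under both trends, and -0.057 to 0.025 leaving out 1 library. For CUS against control, Rpl14 was at -0.0049 and -0.0007 under both trends and at -0.01 to 0.18 leaving out 1 library. Rplp2 was at -0.016 under quantile normalization, -0.0027 with the trend removed and -0.064 to 0.21 leaving out 1 library. For running against control, Rps27l was at 0.018 as TPM, 0.10 and 0.10 under both trends, and -0.070 to 0.074 leaving out 1 library. The lowest or highest of these came without CUS replicate 3 for Rps27l, Rpl7l1, Rpl14 and Rplp2 in comparisons with CUS, and without running replicate 3 for Rps27l against control. The log2 ratio of Rpl22l1 to Rpl22, running against control, lay between -0.15 and 0.0021 when 1 library was left out, and was 0.018 with the trend removed, both alternatives added after seeing the data. The cause of these changes was not tested.

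No paired analysis was possible because the replicate numbers come from the order of listing and pair no libraries. Depth is unknown, which limits what can be said of Rps6 and other low members.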
